A study of Mus musculus with 8 samples.

Results

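The genes described here encode the machinery of the lysosome: the subunits of the proton pump that acidifies it (the V-ATPase), the cathepsins that digest protein inside it, 2 glycosidases with the activator protein prosaposin, and proteins of its membrane. The list held 38 genes, and a gene was measured where a probe set of the array carried exactly that 1 symbol in the platform annotation, the probe set with the highest mean signal standing for a gene with several. Of the 38 listed genes 37 were measured, out of 19938 genes named in the table, and Atp6v0c, the proton-carrying c subunit, had no such probe set.

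RNA from whole paws of male DBA1/J mice, aged 8 to 10 weeks at the start, was hybridised to Affymetrix Mouse Gene 1.0 ST arrays, 2 for each of 4 groups. In the CIA+MLIF group, arthritis was induced by an injection at the tail base of type II collagen from chicken (150 µg), emulsified with complete Freund's adjuvant, and the peptide MLIF (monocyte locomotion inhibitory factor, an anti-inflammatory pentapeptide first found in the amoeba Entamoeba histolytica) was given nasally each week from 1 week before the first injection to the end. The CIA group (collagen-induced arthritis) received the collagen without the peptide. The adjuvant+MLIF group received complete Freund's adjuvant and the weekly peptide for 9 weeks, and the adjuvant group received complete Freund's adjuvant alone. All 4 groups had an injection of incomplete Freund's adjuvant at week 3, so no group was untreated. Each group held 8 mice. The titles call the arrays biological replicates without saying whether an array held 1 mouse or a pool, so p-values reflect only how far these arrays spread. The sample labels place collection 4 weeks after the booster, at the time of clinical severity, while the series text places it before the booster.

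Lysosomes break down material taken up from outside the cell and worn-out parts of the cell itself. The V-ATPase is a rotary pump: its V1 sector in the cytosol splits ATP, and its V0 sector in the membrane carries protons into the lysosome, where acid pH activates the hydrolases. Cathepsins are mostly cysteine proteases, with a few aspartic and serine enzymes. In the joint, the same pump and the same kind of protease are used by osteoclasts, which acidify the bone surface through their ruffled border and digest its collagen, and by macrophages and other phagocytes, which digest what they engulf and process antigen.

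Every value below is a log2 signal of 1 probe set on 1 array, and signals are not compared between genes because probe sets differ in sensitivity. The 8 arrays did not share a common level. The median over the 28944 probe sets tested was 6.66 on CIA replicate 1 and 7.07 to 7.10 on the other 7 arrays, so results are also given without that array or with every array centred on its median. The replicates of a group correlated at 0.988 (CIA) to 0.999 (adjuvant+MLIF) over all probe sets. Acan, Comp, Col2a1 and Prg4, which mark cartilage and the joint surface, stood above the median of the array's control entries on all 8 arrays. The paws also held strong signals of skeletal muscle. Strong signals of epidermis were held only in the CIA and CIA+MLIF groups. In the adjuvant and adjuvant+MLIF groups the mean of the epidermal markers lay below the array median.

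The lysosomal genes more often had higher than lower signals in CIA than in adjuvant paws. In CIA over adjuvant paws, 10 of the 37 genes rose and none fell (limma, adjusted p under 0.05 over all probe sets), against 4.3% of all probe sets that rose and 14.2% that fell. The 10 were the pump subunits Atp6v1a, Atp6v1b2, Atp6v1h and Atp6v0b, the accessory protein Atp6ap2, the cathepsins Ctsb and Ctsd, the tetraspanin Cd63 and the glycosidases Gla and Hexa. The median log2 change of the 37 genes was 0.36, against -0.25 over all probe sets and -0.14 over the 8935 probe sets within the signal range of 36 of the genes (mean log2 signal 7.98 to 12.71, Ctsw being dimmer), of which 5.56% rose. The changes of 28 genes were positive. Once each array had been centred on its median, 35 were positive, with Atp6v0a1 and Ctsl the exceptions, and 22 rose against 13.4% of all probe sets.

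In CIA+MLIF over CIA paws, 9 of the 37 genes fell and none rose, against 3.25% of all probe sets that fell and 11.5% that rose. They were Atp6v1a, Atp6v1b2, Atp6v1h, Atp6v0b, Ctsb, Ctsh, Ctss, Cd63 and Hexa. The median log2 change of the 37 genes was -0.39, against 0.24 over all probe sets and 0.12 over those in the same signal range, of which 4.57% fell. Changes were negative for 31 genes and, with centred arrays, for 36, and then 25 fell against 12.1% of all probe sets. Both comparisons contain the same 2 CIA arrays, so the values of one are not independent of those of the other.

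The number of genes that passed depended on single arrays. In CIA over adjuvant it was higher without either CIA array. It was lower when any 1 of the adjuvant or adjuvant+MLIF arrays was left out. In CIA+MLIF over CIA it was higher without either CIA array and lower when any 1 of the other arrays was left out. The number of all probe sets that passed moved widely in these fits too, so such counts are not read as a result about these genes. The genes called with all 8 arrays kept the direction of their change in all of these fits. Each standard error and p-value rests on 1 spread per probe set shared by the 4 groups. The groups differed in spread: the SD of the difference between replicates was 0.09 (adjuvant+MLIF) to 0.32 (CIA) over all probe sets. In fits of only the groups compared, 3 of the 10 genes called in CIA over adjuvant still passed. So did 2 of the 9 called in CIA+MLIF over CIA.

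**Figure D1:**
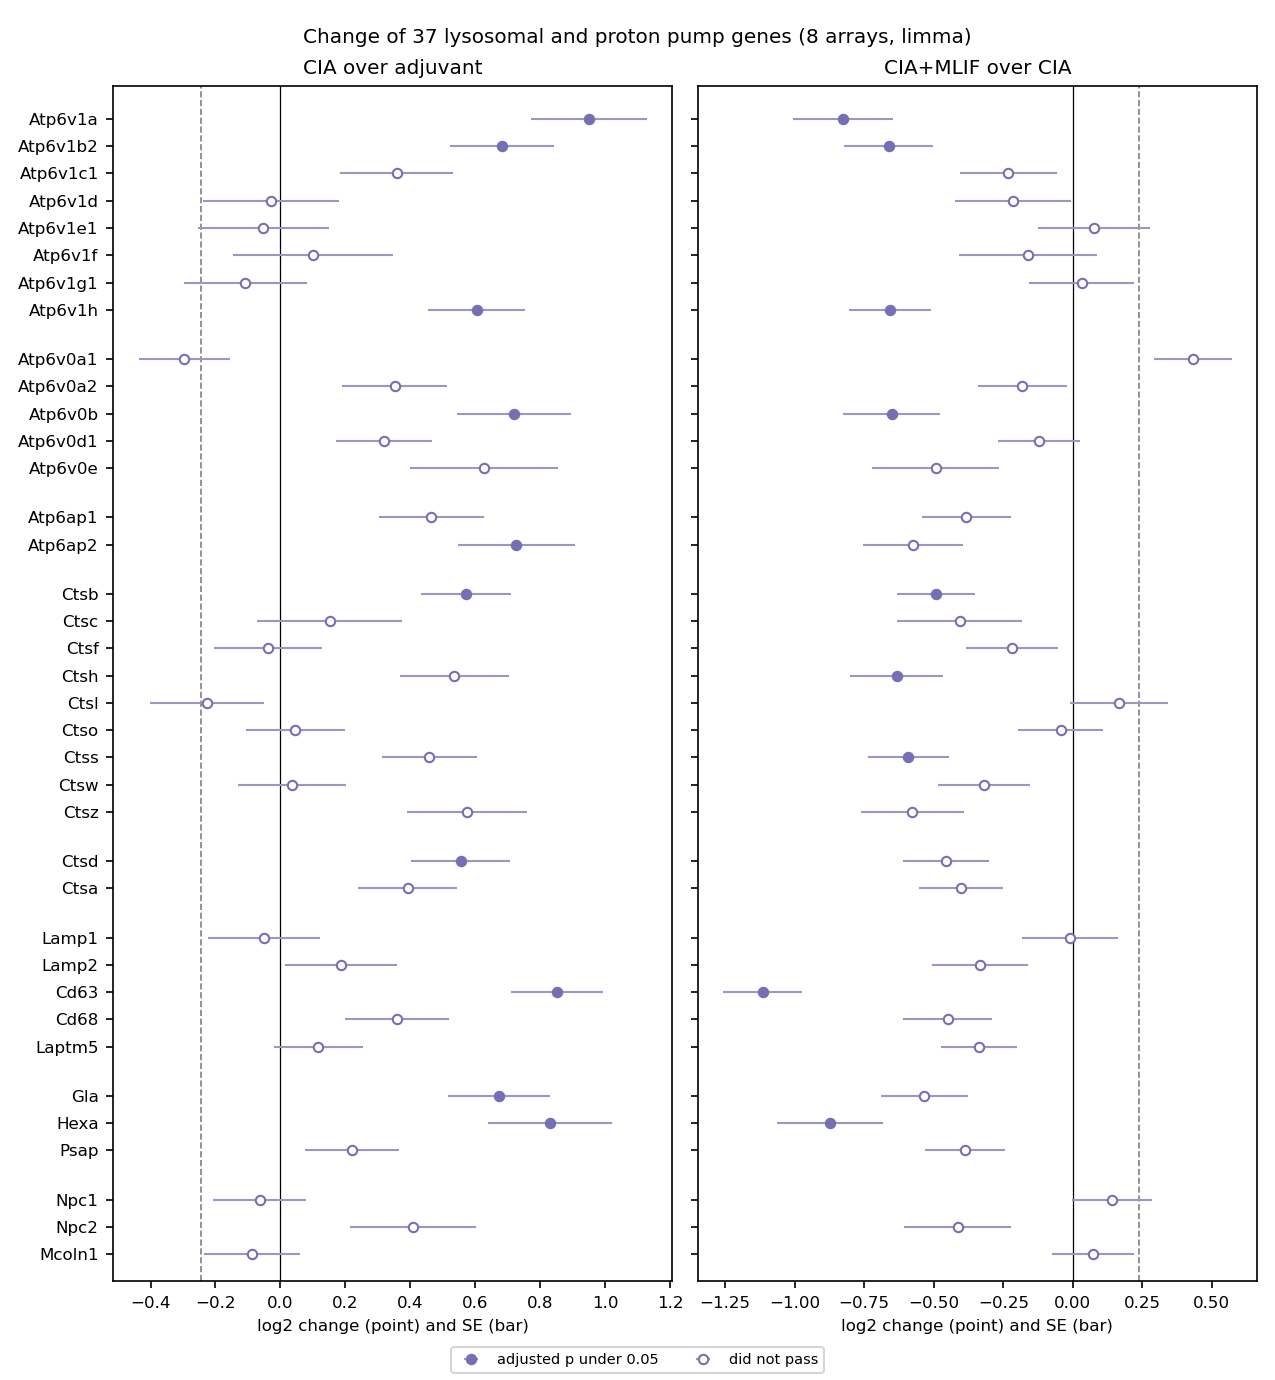
Log2 change (point) with its standard error (bar) of each of the 37 genes, grouped by role, in CIA over adjuvant paws and in CIA+MLIF over CIA paws, with filled points for adjusted p under 0.05 and a dashed line at the median of all probe sets. All filled points lie right of 0 in the first panel (10 genes) and left of 0 in the second (9 genes).

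Cell type markers moved in the same comparisons. In CIA over adjuvant, all 12 neutrophil markers and 8 of 11 osteoclast markers rose, while of 13 macrophage markers 2 rose (Cd14 and Mpeg1) and 1 fell (Cd163). The mean log2 signal above the array median for the macrophage list was 1.83 to 2.01 in CIA+MLIF, 2.20 to 2.29 in CIA, 2.12 to 2.14 in adjuvant+MLIF and 1.92 to 2.11 in adjuvant paws. For the osteoclast list, which holds Acp5, Ctsk and Atp6v0d2, it was 0.58 to 0.67 in CIA+MLIF, 1.95 to 2.19 in CIA, 0.80 to 0.81 in adjuvant+MLIF and 0.53 to 0.68 in adjuvant paws. The neutrophil list stood at 0.28 to 0.35 in CIA+MLIF, 2.32 to 2.43 in CIA, 0.79 to 0.80 in adjuvant+MLIF and 0.00 to 0.17 in adjuvant paws. All 12 muscle markers fell and all 10 measured epidermal markers rose in CIA over adjuvant. In CIA+MLIF over CIA all 12 neutrophil markers, 8 osteoclast markers and 8 epidermal markers fell while all 12 muscle markers rose. The epidermis list stood at 3.73 to 3.88 in CIA+MLIF, 4.95 to 5.12 in CIA, -0.99 to -0.94 in adjuvant+MLIF and -1.03 to -0.99 in adjuvant paws. All 10 epidermal markers also rose in CIA+MLIF over adjuvant+MLIF. Epidermal signal therefore separated the collagen groups from the adjuvant groups. Of 9 fibroblast markers 7 rose in CIA over adjuvant and 7 fell in CIA+MLIF over CIA, with a mean log2 signal above the array median of 3.95 to 4.18 in CIA+MLIF, 5.11 to 5.42 in CIA, 4.24 to 4.25 in adjuvant+MLIF and 4.04 to 4.17 in adjuvant paws. Of 7 adipocyte markers 6 fell in CIA over adjuvant and 4 rose in CIA+MLIF over CIA. The part of these shifts in the lysosomal genes was not tested, and in whole paws fewer cells of a type and less RNA per cell cannot be told apart.

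Of the 8 measured V1 subunits, 3 rose in CIA over adjuvant and the same 3 fell in CIA+MLIF over CIA. Atp6v1a, the catalytic A subunit that hydrolyses ATP (probe set 10439566), had log2 signals of 8.98 and 9.30 in CIA+MLIF paws, 9.81 and 10.12 in CIA paws, 9.18 and 9.25 in adjuvant+MLIF paws and 8.92 and 9.11 in adjuvant paws. Both CIA arrays stood above the other 6, and both adjuvant+MLIF arrays stood above both adjuvant arrays. The log2 change was 0.95 ± 0.18 in CIA over adjuvant (SE, 1.93-fold, adjusted p = 0.00653) and -0.83 ± 0.18 in CIA+MLIF over CIA (adjusted p = 0.0158). Atp6v1b2, the non-catalytic B subunit found in most tissues and abundant in osteoclasts, had 9.82 and 10.12 in CIA+MLIF paws, 10.61 and 10.66 in CIA paws, 10.13 and 10.11 in adjuvant+MLIF paws and 9.85 and 10.05 in adjuvant paws. Its 2 CIA arrays were again the highest of the 8. The log2 change was 0.68 ± 0.16 in CIA over adjuvant (1.6-fold, adjusted p = 0.019) and -0.66 ± 0.16 in CIA+MLIF over CIA (adjusted p = 0.025). Atp6v1h, the H subunit, which the pump needs for activity, had 7.91 and 8.09 in CIA+MLIF paws, 8.60 and 8.72 in CIA paws, 8.24 and 8.28 in adjuvant+MLIF paws and 7.98 and 8.12 in adjuvant paws. No other array reached the CIA arrays, and the log2 change was 0.60 ± 0.15 in CIA over adjuvant (1.52-fold, adjusted p = 0.0233) and -0.66 ± 0.15 in CIA+MLIF over CIA (adjusted p = 0.0192).

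The other 5 V1 subunits did not pass in either comparison. Atp6v1c1, the C subunit, which links the V1 stalks to the membrane sector, changed by 0.36 in CIA over adjuvant (adjusted p = 0.174) and by -0.23 in CIA+MLIF over CIA (adjusted p = 0.366). Atp6v1d (central stalk), Atp6v1e1 and Atp6v1g1 (peripheral stalks) and Atp6v1f (central stalk) had log2 changes between -0.11 and 0.10 in CIA over adjuvant and between -0.22 and 0.08 in CIA+MLIF over CIA. Their arrays overlapped between groups in both comparisons.

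Promoter windows (250 bases before to 50 after an annotated gene start, RefSeq, GRCm38.p6) were found for 29 of the 38 listed genes. The shared element searched was the E-box CACGTG, the core that TFEB and its relatives bind in the promoters of lysosomal genes. The window of Atp6v1a (chr16:44139210-44139509, minus strand) and that of Atp6v0b (chr4:117887280-117887579, minus strand) are shown because both genes passed in both comparisons and both windows hold the core. The Atp6v1a window lies inside the gene, which spans chr16:44085402-44139702, so the sequence before that span was not searched. Capitals mark the 8-base palindrome TCACGTGA where it is complete and the E-box otherwise.
Atp6v1a: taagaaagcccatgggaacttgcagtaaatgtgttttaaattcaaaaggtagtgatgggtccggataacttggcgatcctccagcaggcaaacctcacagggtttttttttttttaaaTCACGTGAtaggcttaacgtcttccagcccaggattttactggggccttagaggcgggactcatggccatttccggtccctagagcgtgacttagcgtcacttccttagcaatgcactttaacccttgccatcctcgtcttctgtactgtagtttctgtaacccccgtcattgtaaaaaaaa
Atp6v0b: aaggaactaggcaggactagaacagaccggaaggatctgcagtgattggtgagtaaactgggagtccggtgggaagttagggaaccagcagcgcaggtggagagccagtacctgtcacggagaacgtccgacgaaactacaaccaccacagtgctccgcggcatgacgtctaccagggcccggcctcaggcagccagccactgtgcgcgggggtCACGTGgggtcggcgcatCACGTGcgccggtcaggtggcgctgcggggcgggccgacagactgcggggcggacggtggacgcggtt

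Of the 5 measured V0 subunits, Atp6v0b passed in both comparisons and the other 4 in neither. Atp6v0b, the c'' subunit of the proton-carrying ring (probe set 10515519), had log2 signals of 9.87 and 10.08 in CIA+MLIF paws, 10.61 and 10.64 in CIA paws, 10.30 and 10.31 in adjuvant+MLIF paws and 9.70 and 10.11 in adjuvant paws. The CIA arrays were the 2 highest, and the adjuvant+MLIF arrays lay above both adjuvant arrays. The log2 change was 0.72 ± 0.17 in CIA over adjuvant (1.65-fold, adjusted p = 0.022) and -0.65 ± 0.17 in CIA+MLIF over CIA (adjusted p = 0.0381). Atp6v0e, a small membrane subunit, changed by 0.63 ± 0.23 (adjusted p = 0.0883) and -0.49 ± 0.23 (adjusted p = 0.168) in the same comparisons, with both CIA arrays above the other 6. Atp6v0d1, the d subunit that couples the stalk to the ring, and Atp6v0a2, an a subunit isoform of the Golgi and endosomes, changed by 0.32 and 0.35 in CIA over adjuvant and by -0.12 and -0.18 in CIA+MLIF over CIA.

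Atp6v0a1, the a subunit isoform known best from neurons, had the lowest change of the 37 genes in CIA over adjuvant. Its log2 signals were 9.74 and 9.62 in CIA+MLIF paws, 9.22 and 9.28 in CIA paws, 9.67 and 9.69 in adjuvant+MLIF paws and 9.59 and 9.50 in adjuvant paws. Both CIA arrays lay below the other 6. The log2 change was -0.30 ± 0.14 in CIA over adjuvant (adjusted p = 0.163), close to the median of all probe sets, and 0.43 ± 0.14 in CIA+MLIF over CIA (adjusted p = 0.0712), so neither passed.

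The accessory proteins of the pump are Atp6ap2, the prorenin receptor, which helps to assemble the V0 sector, and Atp6ap1, which assists assembly and guides the pump. Atp6ap2 had log2 signals of 9.02 and 9.27 in CIA+MLIF paws, 9.57 and 9.86 in CIA paws, 9.30 and 9.32 in adjuvant+MLIF paws and 8.83 and 9.16 in adjuvant paws. The CIA arrays were the highest 2 of the 8. Its log2 change was 0.73 ± 0.18 in CIA over adjuvant (1.65-fold, adjusted p = 0.0241) and -0.58 ± 0.18 in CIA+MLIF over CIA, which did not pass (adjusted p = 0.0638). Atp6ap1 changed by 0.46 ± 0.16 (adjusted p = 0.0757) and -0.38 ± 0.16 (adjusted p = 0.135).

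**Figure D2:**
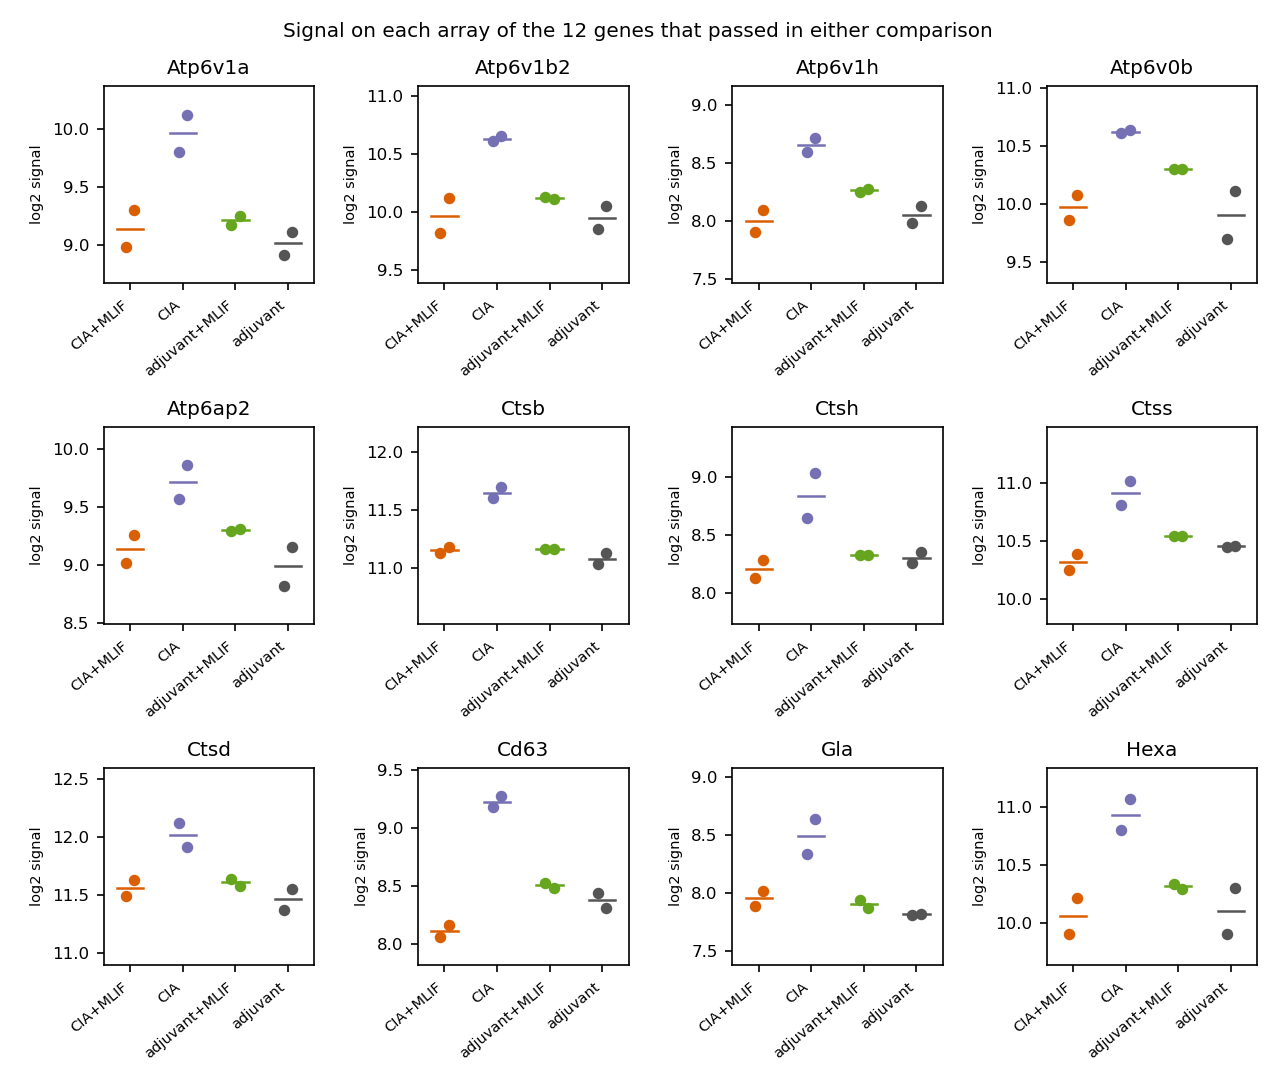
Log2 signal on each of the 8 arrays (points) and group mean (line) for the 12 genes that passed in CIA over adjuvant or CIA+MLIF over CIA. In all 12 panels both CIA points lie above the 6 points of the CIA+MLIF, adjuvant+MLIF and adjuvant groups. Choosing genes that passed in comparisons with the CIA group favours this pattern, so it is not added support.

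Among the 9 cysteine cathepsins, 1 rose in CIA over adjuvant (Ctsb) and 3 fell in CIA+MLIF over CIA (Ctsb, Ctsh and Ctss). Ctsb, cathepsin B, an endopeptidase and carboxydipeptidase of most cells (probe set 10415844), had log2 signals of 11.13 and 11.18 in CIA+MLIF paws, 11.60 and 11.70 in CIA paws, 11.16 on both adjuvant+MLIF arrays, and 11.03 and 11.13 in adjuvant paws. The 6 arrays outside the CIA group lay within a narrow band below it. The log2 change was 0.57 ± 0.14 in CIA over adjuvant (1.48-fold, adjusted p = 0.0224) and -0.49 ± 0.14 in CIA+MLIF over CIA (adjusted p = 0.0456). Ctsh, cathepsin H, which works mainly as an aminopeptidase, had 8.13 and 8.28 in CIA+MLIF paws, 8.65 and 9.03 in CIA paws, 8.33 on both adjuvant+MLIF arrays, and 8.26 and 8.35 in adjuvant paws. The CIA arrays did not overlap any other group. It fell by 0.63 ± 0.17 in CIA+MLIF over CIA (adjusted p = 0.0366), and its change of 0.53 ± 0.17 in CIA over adjuvant did not pass (adjusted p = 0.0565).

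Ctss, cathepsin S, which trims the invariant chain of MHC class II molecules in antigen-presenting cells (probe set 10494271), had log2 signals of 10.25 and 10.39 in CIA+MLIF paws, 10.81 and 11.02 in CIA paws, 10.54 on both adjuvant+MLIF arrays, and 10.45 and 10.46 in adjuvant paws. Both CIA arrays were above, and both CIA+MLIF arrays below, the 4 arrays without collagen. It fell by 0.59 ± 0.15 in CIA+MLIF over CIA (adjusted p = 0.0287), and its change of 0.46 ± 0.15 in CIA over adjuvant did not pass (adjusted p = 0.0605). Ctsz, cathepsin Z, a carboxypeptidase of monocytes and macrophages, had changes of similar size, 0.57 ± 0.19 (adjusted p = 0.0614) and -0.58 ± 0.19 (adjusted p = 0.0688), which did not pass.

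The other 5 cysteine cathepsins had smaller changes in CIA over adjuvant. Ctsl, cathepsin L, a broad endopeptidase, changed by -0.23 ± 0.17 in CIA over adjuvant (adjusted p = 0.367) and by 0.17 ± 0.17 in CIA+MLIF over CIA (adjusted p = 0.518). Ctsc, which activates the serine proteases of neutrophil, mast cell and cytotoxic lymphocyte granules, changed by 0.15 ± 0.22 and -0.41 ± 0.22. On the deposited values its arrays overlapped in both comparisons. With centred arrays its changes were 0.37 (limma, adjusted p = 0.141) and -0.63 (adjusted p = 0.0271), so the fall in CIA+MLIF over CIA then passed. Ctsf and Ctso changed by -0.04 and 0.05 in CIA over adjuvant. Ctsw, a cathepsin of NK cells and cytotoxic T cells, was below the median of the control entries on 6 of 8 arrays, and its changes of 0.03 and -0.32 are those of a dim probe set.

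The aspartic protease Ctsd and the serine carboxypeptidase Ctsa were higher on both CIA arrays than on the other 6. Ctsd, cathepsin D, the main aspartic protease of lysosomes (probe set 10569319), had log2 signals of 11.49 and 11.63 in CIA+MLIF paws, 12.12 and 11.92 in CIA paws, 11.64 and 11.58 in adjuvant+MLIF paws and 11.37 and 11.55 in adjuvant paws. It rose by 0.55 ± 0.15 in CIA over adjuvant (1.47-fold, adjusted p = 0.0367), and its change of -0.46 ± 0.15 in CIA+MLIF over CIA did not pass (adjusted p = 0.0786). Ctsa, which also protects beta-galactosidase and neuraminidase in a complex, changed by 0.39 ± 0.15 (adjusted p = 0.105) and -0.40 ± 0.15 (adjusted p = 0.107).

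Of the 5 membrane proteins only Cd63 passed, and it did so in both comparisons. Cd63, a tetraspanin of late endosomes, lysosomes and secretory granules (probe set 10367436), had log2 signals of 8.06 and 8.17 in CIA+MLIF paws, 9.18 and 9.28 in CIA paws, 8.53 and 8.49 in adjuvant+MLIF paws and 8.44 and 8.32 in adjuvant paws. Both CIA arrays lay above all others and both CIA+MLIF arrays below all others. Its log2 change was 0.85 ± 0.14 in CIA over adjuvant (1.8-fold, adjusted p = 0.0035) and -1.11 ± 0.14 in CIA+MLIF over CIA (0.462-fold, adjusted p = 0.00111), the second being the largest fall among the 37 genes. Its log2 change in CIA over adjuvant lay between 0.79 and 1.07 over the 20 alternative settings given below. With array weights Cd63 did not pass in CIA over adjuvant.

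Lamp1 and Lamp2, the heavily glycosylated proteins that line the inner face of the lysosomal membrane, did not pass. Lamp1 had log2 signals of 10.92 and 11.21 in CIA+MLIF paws, 10.92 and 11.24 in CIA paws, 11.26 and 11.25 in adjuvant+MLIF paws and 11.05 and 11.21 in adjuvant paws. Its groups overlapped, and its log2 change was -0.05 ± 0.17 in CIA over adjuvant (adjusted p = 0.847) and -0.01 ± 0.17 in CIA+MLIF over CIA (adjusted p = 0.969). Lamp2 changed by 0.19 ± 0.17 and -0.34 ± 0.17. Cd68, a lysosomal glycoprotein of macrophages and osteoclasts, changed by 0.36 ± 0.16 (adjusted p = 0.146) and -0.45 ± 0.16 (adjusted p = 0.0914), and Laptm5, a membrane protein of blood cell lysosomes, by 0.12 ± 0.14 and -0.34 ± 0.14.

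The promoter windows of Lamp1 (chr8:13158911-13159210, plus strand) and Cd63 (chr10:128909095-128909394, plus strand) are shown as a contrast. The Lamp1 window holds 4 E-boxes, in capitals, and Lamp1 passed in neither comparison, while the Cd63 window holds none and Cd63 passed in both. The Cd63 window lies inside the gene, which spans chr10:128896231-128912822, so the sequence before that span was not searched. This pair was picked after the calls were seen and does not decide whether the E-box goes with a change.
Lamp1: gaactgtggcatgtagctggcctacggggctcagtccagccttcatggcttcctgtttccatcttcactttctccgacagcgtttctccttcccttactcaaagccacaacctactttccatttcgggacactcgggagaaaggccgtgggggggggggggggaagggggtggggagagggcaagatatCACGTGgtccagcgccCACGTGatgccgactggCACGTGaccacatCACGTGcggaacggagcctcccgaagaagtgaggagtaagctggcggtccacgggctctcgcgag
Cd63: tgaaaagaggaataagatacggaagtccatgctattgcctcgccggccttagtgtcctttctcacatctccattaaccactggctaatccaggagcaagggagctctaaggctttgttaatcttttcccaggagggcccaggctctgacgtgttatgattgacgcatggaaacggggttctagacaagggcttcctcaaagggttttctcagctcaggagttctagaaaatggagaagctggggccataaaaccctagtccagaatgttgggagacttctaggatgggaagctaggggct

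Both glycosidases rose in CIA over adjuvant paws, and 1 of them fell in CIA+MLIF over CIA. Hexa, the alpha subunit of beta-hexosaminidase, which degrades the ganglioside GM2 (probe set 10585874), had log2 signals of 9.90 and 10.21 in CIA+MLIF paws, 10.80 and 11.07 in CIA paws, 10.33 and 10.29 in adjuvant+MLIF paws and 9.90 and 10.30 in adjuvant paws. The CIA arrays were the 2 highest. Its log2 change was 0.83 ± 0.19 in CIA over adjuvant (1.78-fold, adjusted p = 0.0179) and -0.87 ± 0.19 in CIA+MLIF over CIA (0.546-fold, adjusted p = 0.017). Gla, alpha-galactosidase A, which removes terminal galactose from globotriaosylceramide (probe set 10606714), had 7.89 and 8.02 in CIA+MLIF paws, 8.33 and 8.64 in CIA paws, 7.94 and 7.87 in adjuvant+MLIF paws and 7.81 and 7.82 in adjuvant paws. Its CIA arrays again exceeded the other 6. The log2 change was 0.67 ± 0.16 in CIA over adjuvant (1.59-fold, adjusted p = 0.0185), and -0.53 ± 0.16 in CIA+MLIF over CIA did not pass (adjusted p = 0.0519). Psap, the precursor of the saposins that present sphingolipids to these enzymes, changed by 0.22 ± 0.14 (adjusted p = 0.294) and -0.39 ± 0.14 (adjusted p = 0.103).

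The window of Gla (chrX:134600956-134601255, minus strand) is shown because it holds 2 copies of the 8-base palindrome TCACGTGA, in capitals. A window of Ctsa, which passed in neither comparison, also holds 2 copies.
Gla: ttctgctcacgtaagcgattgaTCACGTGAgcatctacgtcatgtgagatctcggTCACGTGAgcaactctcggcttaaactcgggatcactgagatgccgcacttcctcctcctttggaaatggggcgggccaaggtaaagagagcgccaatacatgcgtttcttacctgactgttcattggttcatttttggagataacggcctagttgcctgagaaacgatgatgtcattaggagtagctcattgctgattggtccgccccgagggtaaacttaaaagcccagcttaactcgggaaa

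The 3 genes of cholesterol and ion transport passed in neither comparison. Npc1 and Npc2, which hand cholesterol out of the lysosome, differed in sign, with log2 changes of -0.06 ± 0.14 and 0.41 ± 0.19 in CIA over adjuvant and 0.14 ± 0.14 and -0.41 ± 0.19 in CIA+MLIF over CIA. With centred arrays both changes of CIA over adjuvant were positive. Mcoln1, the calcium-releasing TRPML1 channel, changed by -0.09 ± 0.15 and 0.07 ± 0.15.

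Across all 4 groups, 20 of the 37 genes had both CIA arrays above the other 6, against 8.09% of all probe sets. They were 3 of 8 V1 subunits, 3 of 5 V0 subunits, both accessory proteins, 4 of 9 cysteine cathepsins, Ctsd and Ctsa, 3 of 5 membrane proteins, and Gla, Hexa and Psap, but none of the 3 transport genes. The V0 subunit Atp6v0a2 had another, dimmer probe set (10525804) without this pattern. That probe set read 8.85 on CIA replicate 1 and 8.92 and 9.05 in CIA+MLIF paws. As the mean log2 signal above the array median, the 8 V1 subunits stood at 2.15 and 2.47 in CIA+MLIF, 2.90 and 2.82 in CIA, 2.48 and 2.48 in adjuvant+MLIF and 2.22 and 2.45 in adjuvant paws. The glycosidases with prosaposin stood at 2.96 and 3.20 in CIA+MLIF, 4.01 and 3.81 in CIA, 3.28 and 3.22 in adjuvant+MLIF and 3.05 and 3.18 in adjuvant paws. For both roles the CIA arrays were the 2 highest, on this scale, which removes the lower overall level of CIA replicate 1.

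**Figure D3:**
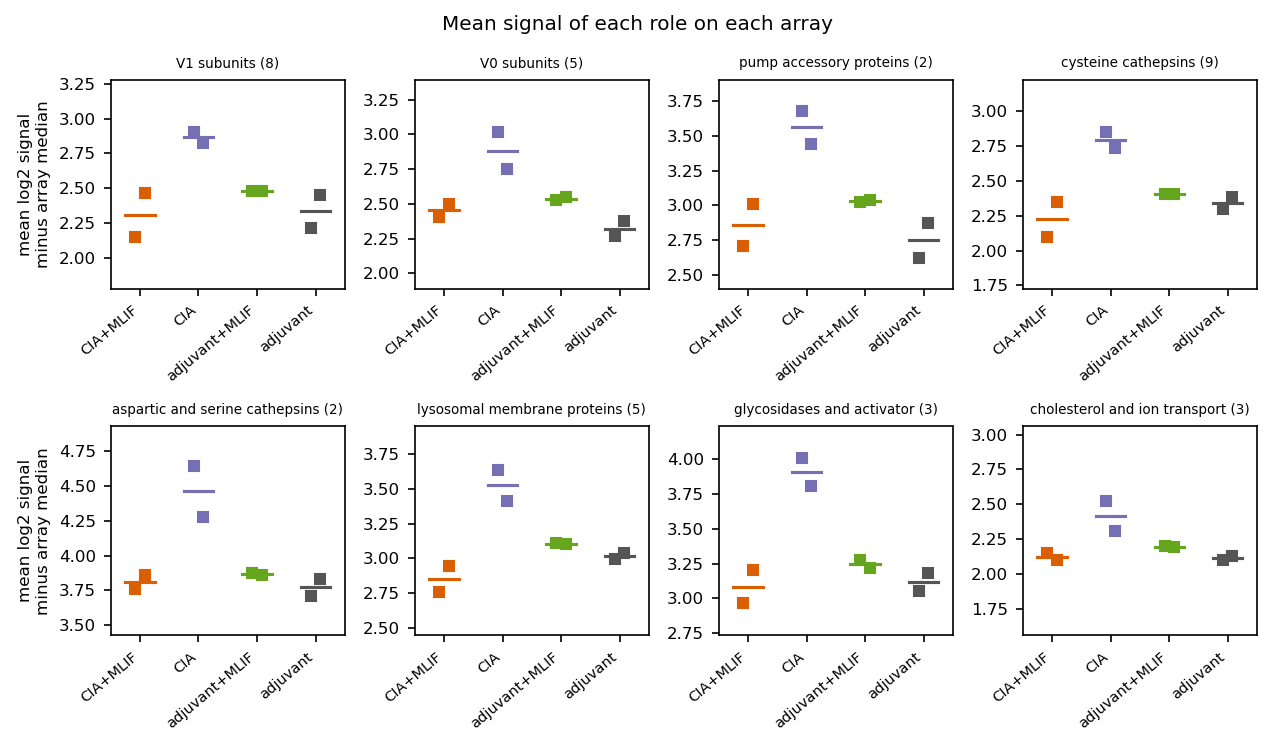
Mean log2 signal minus the array median of the genes of each role on each array (squares), with the group mean (line). The CIA squares are the highest in all 8 panels.

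MLIF without collagen changed none of the 37 genes beyond the threshold. In adjuvant+MLIF over adjuvant no probe set of the table passed in limma (0% of 28944), 1107 had an unadjusted p under 0.05, and among the 37 genes this was so for Atp6v0b alone, whose log2 change was 0.40. The changes of 34 genes were positive, with a median of 0.12 against 0.03 over all probe sets. In CIA+MLIF over adjuvant+MLIF, which compares arthritic with adjuvant paws under the peptide, none of the 37 genes passed, against 0.729% of all probe sets, and 3 had an unadjusted p under 0.05 (Ctsw, Cd63 and Laptm5, with log2 changes of -0.48, -0.39 and -0.35). The changes of 32 genes were negative, with a median of -0.15 against -0.03 over all probe sets, and after quantile normalization 26 were negative.

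The effect of MLIF differed between collagen-treated and adjuvant-only mice for 5 of the 37 genes. The interaction, the log2 change of CIA+MLIF over CIA minus that of adjuvant+MLIF over adjuvant, was negative with adjusted p under 0.05 for these 5 genes and positive for none, against 1.62% of all probe sets called negative and 5.62% called positive. It was -1.24 ± 0.20 for Cd63 (adjusted p = 0.0058), -1.05 ± 0.25 for Atp6v0b (adjusted p = 0.0347) and -0.87 ± 0.21 for Atp6v1h (adjusted p = 0.0397). It was -1.03 ± 0.25 for Atp6v1a (adjusted p = 0.0424) and -1.08 ± 0.27 for Hexa (adjusted p = 0.0452). With centred arrays 20 genes passed, all negative, including 4 of 8 V1 subunits, 2 of 5 V0 subunits, both accessory proteins, 5 of 9 cysteine cathepsins and 1 of the 2 other cathepsins. More of all probe sets passed with centred arrays too, as given further below, so the 20 are not to be set against the 1.62%. On the deposited values, the count was higher without either CIA array and lower when any 1 of the other arrays was left out. The number of all probe sets that passed moved in those fits as well.

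Beyond the 37 genes, 71 of 79 other listed lysosomal genes were measured. Of these, 11 rose and 2 fell in CIA over adjuvant. In CIA+MLIF over CIA 7 fell and 2 rose, against 3.25% of all probe sets that fell and 11.5% that rose. By list, 5 of 9 other V-ATPase genes rose and 1 fell in CIA over adjuvant, 2 of 25 other hydrolases and activators rose, and none of 12 other membrane and transport proteins passed, beside 4.3% of all probe sets that rose and 14.2% that fell. With centred arrays 5, 11 and 4 genes of these lists rose, beside 13.4% of all probe sets, and the lists were not tested against each other. Atp6v0d2, the d subunit isoform of osteoclasts, had log2 signals of 6.73 and 6.88 in CIA+MLIF paws, 8.79 and 9.35 in CIA paws, 7.22 and 7.21 in adjuvant+MLIF paws and 6.93 and 7.14 in adjuvant paws. Its change of 2.03 ± 0.20 in CIA over adjuvant (adjusted p = 1.59e-04) and -2.26 ± 0.20 in CIA+MLIF over CIA exceeded that of any of the 37 genes in size, as fitted. Tcirg1, the a3 subunit that sends the pump to the ruffled border, had 8.28 and 8.46 in CIA+MLIF paws, 9.09 and 9.33 in CIA paws, 8.66 and 8.63 in adjuvant+MLIF paws and 8.60 and 8.64 in adjuvant paws. It rose by 0.58 ± 0.15 in CIA over adjuvant (limma, adjusted p = 0.0293) and fell by 0.84 ± 0.15 in CIA+MLIF over CIA (adjusted p = 0.00706). Its paralog Atp6v0a1 had both CIA arrays below all others, whereas Tcirg1 had both above. Atp6v1c2 and Atp6v1b1 rose in CIA over adjuvant, by 1.00 ± 0.14 (limma, adjusted p = 0.00155) and 0.74 ± 0.22 (adjusted p = 0.0472). Their changes of -0.39 and -0.38 in CIA+MLIF over CIA did not pass (adjusted p = 0.0998 and 0.246). Atp6v1c2 lay below the median of the control entries on 2 arrays and Atp6v1b1 on 3. Atp6v0e2, a second e subunit, fell in CIA over adjuvant paws, with a log2 change of -0.71 ± 0.14 (adjusted p = 0.00762), and rose in CIA+MLIF over CIA paws by 0.72 ± 0.14 (adjusted p = 0.00866).

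Of the 5 other cathepsins and lysosomal proteases, Ctsk and Ctse rose in CIA over adjuvant and fell in CIA+MLIF over CIA. Ctsk, cathepsin K, the collagen-digesting enzyme of osteoclasts, changed by 2.06 ± 0.17 (adjusted p = 6.43e-05) and -2.05 ± 0.17, and Acp5, tartrate-resistant acid phosphatase, by 2.17 ± 0.16 and -2.13 ± 0.16. Glb1, beta-galactosidase, rose by 0.52 ± 0.16 in CIA over adjuvant (adjusted p = 0.0488). The osteoclast list contains 3 of these genes (Acp5, Ctsk and Atp6v0d2), so its rise and theirs are the same values.

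**Figure D4:**
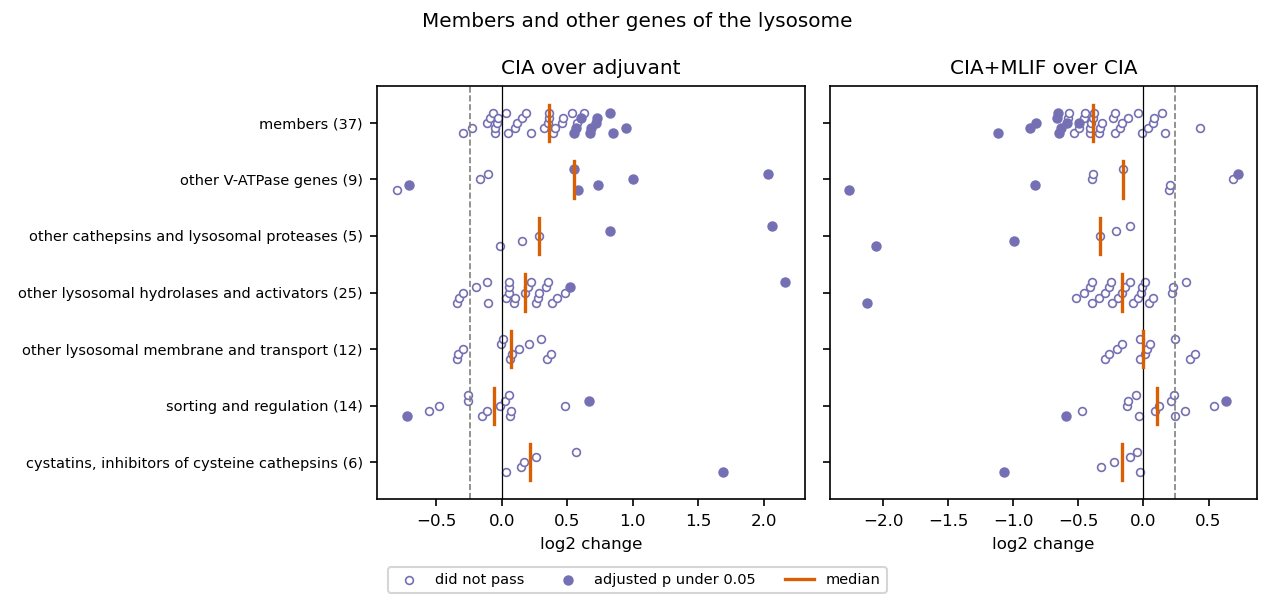
Log2 change of the 37 genes and of 71 other measured lysosomal genes in 6 lists, in CIA over adjuvant and CIA+MLIF over CIA paws, with filled points for adjusted p under 0.05, an orange bar at each list's median and a dashed line at the median of all probe sets. The points beyond 2 in the first panel and below -2 in the second are Atp6v0d2, Ctsk and Acp5.

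The E-box was common in the promoters of the listed genes whether or not a gene passed. CACGTG is a palindrome and so the same on both strands. It was in a window of 11 of 29 listed genes (37.9%), against 2187 of 27025 genes with a window (8.09%). TCACGTGA, which contains CACGTG, was in a window of 7 of the 29 genes (24.1%) against 1.12% of all genes. The 10-base palindrome of the CLEAR consensus, which extends TCACGTGA by 1 base at each end, was in none against 0.37%. Of the genes that passed in CIA over adjuvant or CIA+MLIF over CIA, 4 of 8 with a window held the E-box, and of those that passed in neither, 7 of 20 did. A match shows only that the letters are there.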

How the data were processed

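Paws of male DBA1/J mice in 4 groups were profiled on 8 Affymetrix Mouse Gene 1.0 ST arrays from 300 ng of RNA each, per the labels. The deposited table held log2 signals, a unit read from the values. How the authors corrected, summarised and normalized the signals is not given in the sources used here. CIA replicate 1 kept a lower median than the others. Of 35557 rows, 6613 control entries, recognised by their identifiers, were left out, and 28944 probe sets were tested. The platform annotation, which can be old, gave 1 symbol for 21789 of them (21766 in RefSeq), several for 1621 and none for 5534. No gene was named from a probe set with several. As arrays give no read depth, precision was limited by the 2 arrays per group.

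Group means of all 8 arrays were fitted together in limma 3.58.1 under R 4.3.3, with moderated tests (degrees of freedom 4 residual, 4.96 prior), Benjamini-Hochberg adjustment over all 28944 probe sets in each of 5 comparisons, and a threshold of 0.05. The code was tested on simulated data. Every one of the 37 genes is named, with values on every array for those that passed. Of the other lysosomal genes, at most the 3 largest rises and 3 largest falls that passed in a comparison are named from each list. Atp6v0a1 and Lamp1 were given in full after their values were seen. The genes and lists were chosen with earlier results of these data known.

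Alternatives were quantile normalization, centring on array medians, leaving out the dimmest probe sets, the mean over a gene's probe sets, array weights, trended and robust variance, a fit of the compared groups alone, the replicate number as a block, averaging the adjuvant+MLIF arrays, other thresholds and leaving out each array. The replicate numbers in the titles did not pair the arrays: the deviations of same-numbered arrays correlated at -0.11 to 0.39 over the 6 pairs of groups, so no block was used in the main test. Motifs were counted in promoter windows with Python 3.11.15, and figures drawn with Matplotlib 3.10.9.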

Additional observations from a re-analysis of the deposited data

Results flagged for a closer look

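For 5 genes the effect of MLIF differed between collagen-treated and adjuvant-only mice by the interaction test in limma, over 2 arrays a group. The interaction was -1.24 for Cd63, -1.08 for Hexa, -1.05 for Atp6v0b, -1.03 for Atp6v1a and -0.87 for Atp6v1h, on the log2 scale. For each of the 5, both CIA+MLIF arrays lay below both CIA arrays. The adjuvant+MLIF arrays lay above both adjuvant arrays for Cd63, Atp6v0b, Atp6v1a and Atp6v1h and overlapped them for Hexa. Choosing genes by a negative interaction favours both placements, so they are not added support. With array weights 1 of the 5 still passed.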

How the results depend on the processing

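No gene called with the main settings changed direction under any alternative, but the counts of genes called moved. For the 37 genes, the counts in CIA over adjuvant (10), CIA+MLIF over CIA (9) and the interaction (5) became 21, 24 and 20 with quantile normalization, 22, 25 and 20 with centred arrays, and 20, 20 and 18 with quantile normalization without CIA replicate 1. They became 0, 1 and 1 with array weights, 3, 3 and 0 with the adjuvant+MLIF arrays averaged, 2, 1 and 1 at an adjusted p under 0.01, and 3 and 2 with only the groups compared, which the interaction does not allow. Without the dimmest tercile of probe sets, and likewise with trended and robust variance, CIA+MLIF over CIA gave 14 and the interaction 8. Leaving out 1 array at a time gave 1 to 19, 1 to 17 and 0 to 15. Cd63 in CIA+MLIF over CIA passed in all 20 alternatives. The other 2 comparisons gave 0 of the 37 genes in every alternative. With the replicate number as a block the counts were 12, 10 and 6, and no pairing is given by the labels. The median change of the 37 genes minus that of all probe sets (0.60, -0.63 and -0.68) became 0.49, -0.44 and -0.49 with quantile normalization, 0.54, -0.56 and -0.59 without the dimmest probe sets, and 0.41, -0.41 and -0.48 with quantile normalization without CIA replicate 1. Leaving out 1 array gave 0.49 to 0.65, -0.72 to -0.47 and -0.82 to -0.63, and for adjuvant+MLIF over adjuvant 0.034 to 0.11 (main 0.10). For CIA+MLIF over adjuvant+MLIF the median of -0.12 became -0.055 with quantile normalization, -0.054 also without CIA replicate 1, and -0.25 to -0.023 without 1 array. Over all probe sets, CIA over adjuvant called 5353, and 8127 with quantile normalization, 1987 with array weights, 3103 with only the groups compared, 3530 with the averaged arrays, 2501 at 0.01 and 2150 to 17706 without 1 array. CIA+MLIF over CIA called 4257, and under the same settings 7089, 1261, 2741, 2710, 1862 and 1575 to 17353, with 6984 for centred arrays. The interaction called 2095, and 5037 with quantile normalization, 4725 centred, 5127 with quantile normalization without CIA replicate 1, 1050 averaged, 1087 at 0.01 and 1053 to 13063 without 1 array. Adjuvant+MLIF over adjuvant called 0, and 365 with quantile normalization, 275 centred, 3 without the dimmest, 4 with trended variance, 1440 with array weights, 676 with only the groups compared, 578 with quantile normalization without CIA replicate 1 and 0 to 529 without 1 array. CIA+MLIF over adjuvant+MLIF called 211, and 413, 340, 660 with array weights, 132 averaged, 567 with quantile normalization without CIA replicate 1 and 128 to 441 without 1 array, the first 2 being quantile normalization and centring. The causes were not tested. With an array left out its group has 1 array, assumed to vary like the others.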

Other observations

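Genes that deliver enzymes to lysosomes or restrain them were listed beside the 37 genes. Among 14 genes of sorting and regulation, Gnptab, which makes the mannose 6-phosphate tag of lysosomal enzymes, rose in CIA over adjuvant paws by 0.67 ± 0.15 (limma, adjusted p = 0.0153) and fell by 0.59 ± 0.15 in CIA+MLIF over CIA (adjusted p = 0.0298). Its log2 signals were 7.76 and 7.83 in CIA+MLIF paws, 8.26 and 8.51 in CIA paws, 7.80 and 7.82 in adjuvant+MLIF paws and 7.71 and 7.73 in adjuvant paws. Tfeb, the transcription factor that activates many lysosomal genes, moved the other way: it had 8.36 and 8.33 in CIA+MLIF paws, 7.46 and 7.96 in CIA paws, 8.45 and 8.37 in adjuvant+MLIF paws and 8.41 and 8.45 in adjuvant paws. Both CIA arrays were the lowest. Its log2 change was -0.72 ± 0.18 in CIA over adjuvant (adjusted p = 0.0251) and 0.63 ± 0.18 in CIA+MLIF over CIA (adjusted p = 0.0474), but its protein is regulated mainly by phosphorylation and location, which arrays do not measure.

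Of 6 measured cystatins, inhibitors of cysteine cathepsins, only Cst6 passed. Its log2 signals were 6.06 and 6.12 in CIA+MLIF paws, 7.32 and 7.0 in CIA paws, 5.64 and 5.13 in adjuvant+MLIF paws and 5.53 and 5.40 in adjuvant paws. All 6 arrays outside the CIA group lay below the median of the array's control entries, so no size of change is given. Cst6 is known from skin, and all 10 measured epidermal markers rose in CIA over adjuvant; the part of epidermis in the Cst6 signal was not tested.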
